A study of Rattus norvegicus with 5 samples.

Results

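Fatty acid oxidation and the making of ketone bodies were examined in the small intestine of rats under mild food restriction, through 31 genes of the carnitine shuttle, the mitochondrial and peroxisomal oxidation spirals, ketone body exchange and the response to fasting. These 31 genes, the members, were listed with earlier results of these data known. All probe sets whose annotated symbol was one of the 31 genes were taken, whatever their signal. Of 15866 probe sets, 40 named a member. In 37 of these the member was the only gene named, which gave 30 members a probe set of their own, and 7 of them had 2. *Acaa1a* was named only together with *Acaa1b*. Of the 37 probe sets, 30 passed the filter on low values, a mean log2 signal at or above the median of all probe sets (a signal of 46.5), as did 7933 of the 15866. These 30 belong to 26 genes. The 5 members without a kept probe set of their own were *Acaa1a*, *Acot1*, *Acot2*, *Ppara* and *Pdk4*.

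Male Wistar rats, 6 weeks of age at the start, were housed singly and given a purified powdered diet for 1 month at the full recorded intake (control) or with 5, 10, 20 or 30% less food (calorie restriction, CR). All groups, the control included, were fasted for 16 h before the small intestine was taken. The RNA of 5 rats was pooled for each group, and each pool was hybridised to 1 Affymetrix GeneChip rat array. The values are MAS5 signals, a linear measure of brightness per probe set that the authors had scaled to a common trimmed mean, and log2 ratios were taken to the control array. Where 5 signals are listed they run from the control through 5, 10 and 20 to 30% CR.

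Fatty acids are activated to acyl-CoA, carried across the inner mitochondrial membrane as carnitine esters, and shortened in repeated rounds of dehydrogenation, hydration, a further dehydrogenation and thiolysis. Peroxisomes hold a parallel set of enzymes for very long and branched chains. During fasting the nuclear receptor PPARα, bound by fatty acids, switches on many of these genes in liver, heart and intestine, where the enterocyte both absorbs fat and burns part of it.

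With 1 array per level there was no replicate check at any single level, and all ratios share the 1 control array, so a deviation of that pool moves every ratio the same way. The tests below rest on the spread among the pools, with 3 residual degrees of freedom. The authors' scaling had set the trimmed means of the arrays to 131.99 to 132, and the medians were 44.9 to 49. The mean log2 signal of 9 spike-in probe sets, by contrast, was 8.17, 7.85, 8.24, 8.67 and 7.95 from the control to 30% CR, highest on the 20% CR array. The log2 signals of any pair of arrays correlated with r from 0.931 to 0.952 across probe sets, which are not independent. Of 10 enterocyte markers 8 were measured, and all 8 lay above the filter signal on every array, among them *Si* (sucrase-isomaltase, with signals of 2335.4, 2548.6, 2397.7, 3096.2 and 2777.4 in order from the control to 30% CR) and *Cdh17* (an intestinal cadherin, 2446.0, 2268.7, 2247.2, 2874.9 and 2344.7 in the same order). The defining markers of the labelled tissue were thus present in every pool. The summed signal of the 8 enterocyte markers was 10118 on the control array and 10682.9, 10062, 14082.3 and 10793.6 on the CR arrays, and 7 of the 8 were highest on the 20% CR array. Digestive enzymes of the exocrine pancreas stood out on the control array, with 7 of 8 markers highest there. Their summed signal was 823.1 on the control array against 371.1, 309.4, 284.7 and 263.7 on the CR arrays. *Cela1*, an elastase also made by the gut, carried much of the sum (214.5, 149.5, 245.8, 207.0 and 184.5), and *Prss1*, the main trypsinogen, gave 174.3, 71.2, 2.4, 24.9 and 18.5. The number of pancreas markers under a signal of 10 was 0, 0, 5, 3 and 4. In bulk tissue, fewer cells of a type and less RNA per cell cannot be told apart.

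The sequences ahead of 4 of the genes are shown because the results turn on them: *Cpt1a* and *Acadm* were among the members whose control signal was the lowest of the 5, and *Acadvl* and *Hadhb* belong to the mitochondrial spiral that was brightest on the 20% CR array. Each runs from 250 bases before the annotated start to 50 bases after it, on the strand of the gene, from RefSeq on the build GRCr8, which held such a window for 26 of the 31 members (not for *Acadl*, *Acaa2*, *Ech1*, *Decr1* and *Vnn1*). The windows lie at chr1:209995910-209996209 (plus strand, *Cpt1a*), chr2:245542815-245543114 (minus strand, *Acadm*), chr10:55236656-55236955 (minus strand, *Acadvl*) and chr6:31907451-31907750 (minus strand, *Hadhb*). Capitals mark the matches to the motifs searched.

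*Cpt1a*: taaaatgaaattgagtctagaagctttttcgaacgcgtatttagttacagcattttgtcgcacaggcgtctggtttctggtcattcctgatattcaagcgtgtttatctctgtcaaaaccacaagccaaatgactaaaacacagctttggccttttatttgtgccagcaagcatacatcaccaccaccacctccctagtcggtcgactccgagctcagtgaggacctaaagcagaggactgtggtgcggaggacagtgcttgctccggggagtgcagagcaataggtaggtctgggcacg

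*Acadm*: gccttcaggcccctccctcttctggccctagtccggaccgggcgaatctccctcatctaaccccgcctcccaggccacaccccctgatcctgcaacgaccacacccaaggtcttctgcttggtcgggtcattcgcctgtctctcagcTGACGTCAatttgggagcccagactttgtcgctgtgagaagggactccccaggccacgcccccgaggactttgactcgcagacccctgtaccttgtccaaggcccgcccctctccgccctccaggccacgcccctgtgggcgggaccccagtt

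*Acadvl*: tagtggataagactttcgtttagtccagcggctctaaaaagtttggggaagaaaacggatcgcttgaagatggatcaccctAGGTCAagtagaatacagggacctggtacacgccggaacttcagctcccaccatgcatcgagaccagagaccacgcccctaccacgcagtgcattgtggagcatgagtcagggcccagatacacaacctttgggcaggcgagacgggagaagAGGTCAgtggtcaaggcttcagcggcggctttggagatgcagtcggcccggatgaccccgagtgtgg

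*Hadhb*: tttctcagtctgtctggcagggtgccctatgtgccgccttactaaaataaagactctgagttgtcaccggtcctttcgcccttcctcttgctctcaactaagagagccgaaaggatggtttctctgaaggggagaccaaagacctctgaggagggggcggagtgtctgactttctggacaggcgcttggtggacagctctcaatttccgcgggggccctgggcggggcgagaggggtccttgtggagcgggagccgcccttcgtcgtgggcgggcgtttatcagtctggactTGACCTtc

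The motifs were searched on both strands. The PPARα element DR1 was searched only as an exact direct repeat of AGGTCA with 1 base of any kind between the copies. It was found for none of the 26 member genes, and in 0.0538% of all 33469 windows. With so rare a match, a count of 0 was to be expected for any 26 genes and does not show that the members lack such elements. The single hexamer AGGTCA, which is part of DR1, was found for 5 of 26 genes (19.2%), against 16.2% of all windows. These were *Acadvl*, with matches 169 and 17 bases upstream, *Hadhb* (read as TGACCT, 43 bases downstream), *Eci1* (94 upstream), *Eci2* (18 downstream) and *Hsd17b4* (56 upstream). The share among the members was thus close to that of all windows. The cAMP response element TGACGTCA was present for *Acadm* alone, 103 bases upstream (1.83% of all windows), and the E-box CACGTG for *Plin2* alone, 67 bases upstream (6.42%). The forkhead letters GTAAACA were found for no member (3.78%). *Hadha* and *Hadhb*, the subunits of the trifunctional protein, start 301 bases apart on opposite strands, and their windows share 200 bases (chr6:31907551-31907750). A match describes letters in a window and says nothing of binding.

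Across the 26 genes the signals on the CR arrays lay close to the control. Taking the brightest probe set of each gene, the log2 ratios from 5 to 30% CR had medians of 0.06, 0.06, 0.20 and 0.05, beside 0.0048, 0.0059, −0.03 and 0.0012 for all kept probe sets. These 4 medians of the members averaged 0.09 (SD 0.07 between levels). The mean ratio was above 0 for 19 genes and below 0 for 7, against 3894 and 4039 of all kept probe sets. No member passed the test of the CR pools against the control pool (limma, Benjamini-Hochberg over 7933 probe sets, 0% called), which called no probe set at all. At an unadjusted p below 0.05, 4 of the 30 member probe sets were found (13.3%, of *Decr1*, *Acadm*, *Cpt1a* and *Vnn1*), against 4.76% of all. *Vnn1* passed the filter only through its control and 5% CR signals, so nothing is read from this share. The linear trend over the restriction percent also called 0%, and at an unadjusted p below 0.05 found 1 member probe set (3.33%, *Angptl4*) against 3.09% of all.

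By size, few members stood apart. A log2 ratio of at least 0.5 in either direction was seen for 2 of the 30 probe sets at 5% CR (6.67%, all probe sets 9.47%), 2 at 10% CR (6.67%, all 8.18%), 5 at 20% CR (16.7%, all 10.1%) and 3 at 30% CR (10%, all 13.1%). These shares lay on both sides of those of all probe sets. At all 4 levels, *Decr1* alone was higher by at least 0.5 (3.33% of member probe sets, 0.769% of all). *Vnn1* alone was lower by as much (3.33%, 0.34% of all), but it passed the filter only through its control and 5% CR signals, so nothing is read from its share, and it was not kept under the stricter filter. The control array was the lowest of the 5 for 11 member probe sets (36.7%, all 19%). It was the highest for 4, *Vnn1* among them (13.3%, all 20.6%). With the 5% CR pool as the reference in place of the control pool, no member kept a ratio of 0.5 at the 10, 20 and 30% levels.

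**Figure D1:**
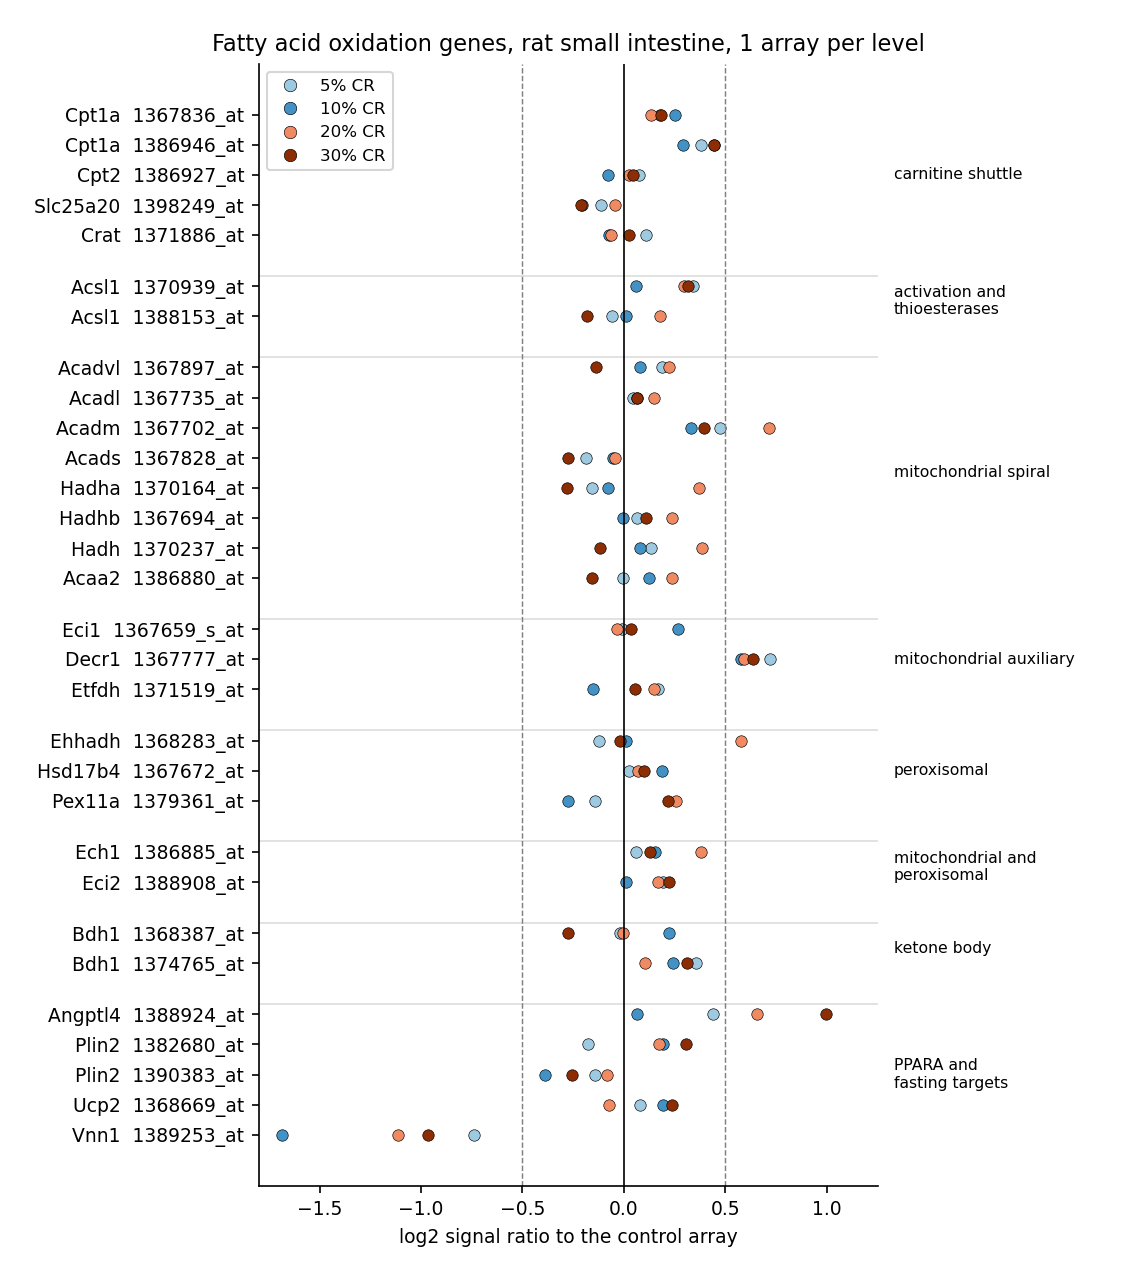
Log2 ratio of the signal to that on the control array (x axis) for the 30 kept member probe sets, in rows by role, with 1 point for each CR array and dashed lines at −0.5 and 0.5. The points of *Decr1* lie between 0.58 and 0.72 and those of *Vnn1* between −1.68 and −0.74, while most others stay within the dashed lines. There is 1 array per level and no error bar.

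The carnitine shuttle opens mitochondrial oxidation. *Cpt1a*, the rate-limiting carnitine palmitoyltransferase of the outer membrane, gave signals of 436.5, 567.8, 533.5, 593.4 and 593.5 in the order control, 5, 10, 20 and 30% CR at its brighter probe set. All 4 CR arrays thus lay above the control, with a mean log2 ratio of 0.39 (standard error 0.14, limma unadjusted p = 0.0182, adjusted p = 0.974). At its dimmer probe set the signals were 104.5, 118.2, 124.3, 114.7 and 118.5, again with the control lowest, and the mean ratio was 0.19 (standard error 0.18). The downstream steps did not share this order. *Cpt2*, which turns acylcarnitine back into acyl-CoA inside the mitochondrion, gave 217.5, 229.3, 205.7, 221.5 and 224.4. *Slc25a20*, the carnitine-acylcarnitine carrier, gave 329.9 on the control array and 305.1, 286.2, 319.6 and 285.1 on the CR arrays, so that the control was highest (mean ratio −0.14). *Crat*, a carnitine acetyltransferase of mitochondria and peroxisomes, varied between 148.2 and 168.6 with the control at 156.2.

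Activation by *Acsl1*, a long-chain acyl-CoA synthetase, differed between its probe sets. The brighter had signals of 143.4 on the control array and 181.4, 149.6, 176.0 and 178.4 on the CR arrays (mean log2 ratio 0.25, standard error 0.18), the control being lowest. The dimmer had 88.8, 85.3, 89.4, 100.4 and 78.2, on both sides of the control (mean −0.01). The thioesterases *Acot1* and *Acot2*, which release free fatty acids from acyl-CoA, were too dim to rank. *Acot1* gave 4.5 on the control array and 9.8, 12.6, 9.1 and 10.5 on the CR arrays, and *Acot2* gave 15.3, 23.7, 16.9, 10.4 and 32.1. The probe set naming both genes ranged from 4.0 to 23.6, and none of these 3 passed the filter.

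The mitochondrial spiral itself was measured at all 8 of its genes, and *Acadm* was the one that stood highest against the control. *Acadm*, the medium-chain acyl-CoA dehydrogenase, gave 613.5 on the control array and 851.4, 770.3, 1007.5 and 805.9 on the CR arrays. Every CR array lay above the control, by a log2 ratio of 0.47, 0.33, 0.72 and 0.39 (mean 0.48, standard error 0.16, limma unadjusted p = 0.0156, adjusted p = 0.974). The dehydrogenases for other chain lengths lay nearer to the control. *Acadvl*, for very long chains, gave 272.2, 310.2, 287.4, 317.7 and 247.2 from control to 30% CR. *Acadl*, for long chains, gave 821.3, 847.9, 860.1, 909.0 and 857.7, with the control lowest by a narrow margin (mean ratio 0.08, standard error 0.13). *Acads*, for short chains, gave 272.4, 239.5, 262.2, 264.2 and 224.7, with the control highest (mean −0.14, standard error 0.16).

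The later steps of the spiral showed the same high value at 20% CR. The trifunctional protein joins hydratase, dehydrogenase and thiolase activities, and its α subunit *Hadha* gave 625.5 on the control array and 560.5, 592.9, 809.4 and 514.4 on the CR arrays. Its β subunit *Hadhb* gave 1090.4, 1140.9, 1087.8, 1285.8 and 1175.7. Both subunits were highest at 20% CR, but at 30% CR *Hadha* lay below the control and *Hadhb* above it. *Hadh*, the short-chain hydroxyacyl-CoA dehydrogenase, gave 1376.2, 1511.7, 1452.2, 1796.9 and 1270.0, and its second probe set (1.2 to 4.6) was far below the filter. *Acaa2*, the mitochondrial thiolase, gave 1494.3, 1490.8, 1629.6, 1759.6 and 1340.4.

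Of the 8 spiral genes, 7 (all but *Acads*, at 264.2 against 272.4 on the control array) thus had their highest signal on the 20% CR array. Over all member probe sets, 11 of 30 were highest on the 20% CR array (36.7%), against 21.2% of all kept probe sets. The median log2 ratio of the 8 spiral genes was 0.06, 0.07, 0.24 and −0.13 across the levels. The enterocyte markers shared the high value at 20% CR, with median ratios of −0.10, −0.13, 0.41 and 0.015. So did the spike-in probe sets (8.67, against 8.17 on the control array). The part of either in the signals of the spiral genes was not tested.

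**Figure D2:**
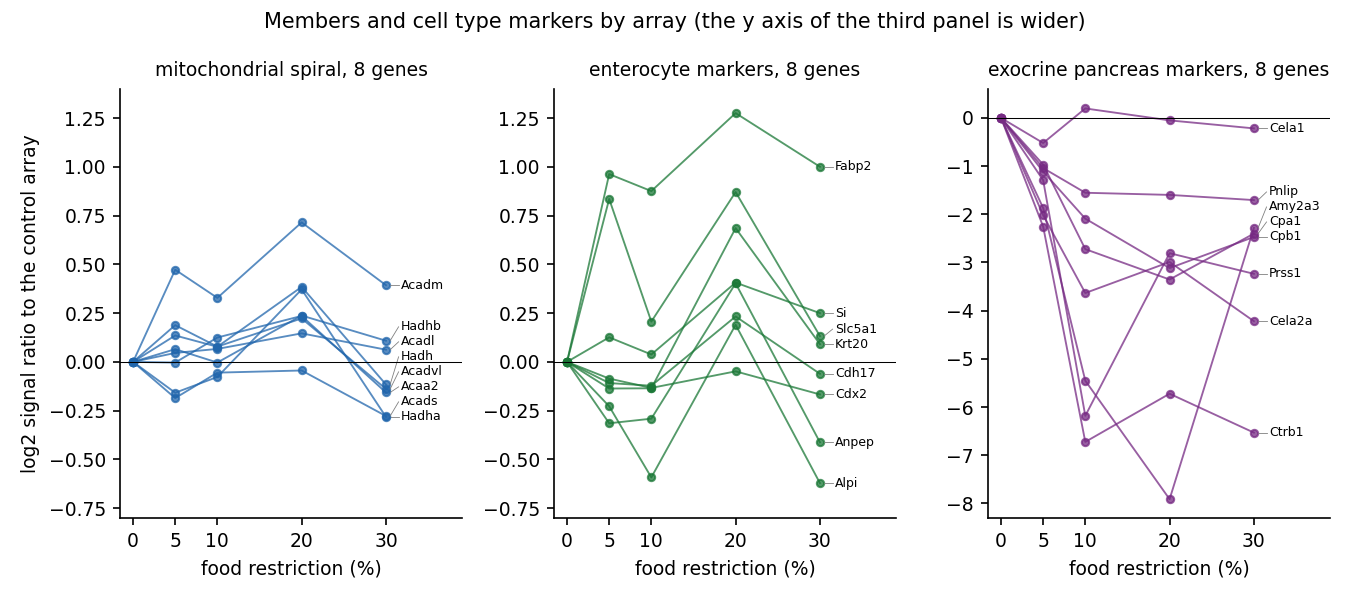
Log2 ratio of each signal to the control signal (y axis) against food restriction in percent (x axis, 0 is the control array) for the 8 mitochondrial spiral genes, 8 enterocyte markers and 8 exocrine pancreas markers, 1 line per gene, with a wider y axis in the last panel. Of the spiral genes 7 and of the enterocyte markers 7 peak at 20% CR, while 7 of the pancreas markers lie below 0 on every CR array.

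The auxiliary enzymes of mitochondrial oxidation, which handle unsaturated chains and pass on electrons, held the 1 member that was higher by at least 0.5 on every CR array. *Decr1*, the mitochondrial 2,4-dienoyl-CoA reductase needed for polyunsaturated fatty acids, gave 267.0 on the control array and 440.3, 398.6, 403.1 and 415.4 on the CR arrays. The 4 CR arrays lay close together and all above the control, by log2 ratios of 0.72, 0.58, 0.59 and 0.64. The mean was 0.63, or 1.55-fold (SD between levels 0.064, standard error 0.14), with an unadjusted p of 0.00126 and an adjusted p of 0.478 in limma. With ratios centred on the enterocyte markers the mean of *Decr1* was 0.58, and it was no longer 0.5 above the control at every level. *Eci1*, the isomerase that moves double bonds in mitochondria, showed no such step, at 231.3, 229.7, 278.6, 226.1 and 236.7 (its second probe set ranged from 1.2 to 5.2). *Etfdh*, which hands the electrons of the dehydrogenases to ubiquinone, gave 379.6, 426.0, 341.9, 420.6 and 393.6, on both sides of the control.

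**Figure D3:**
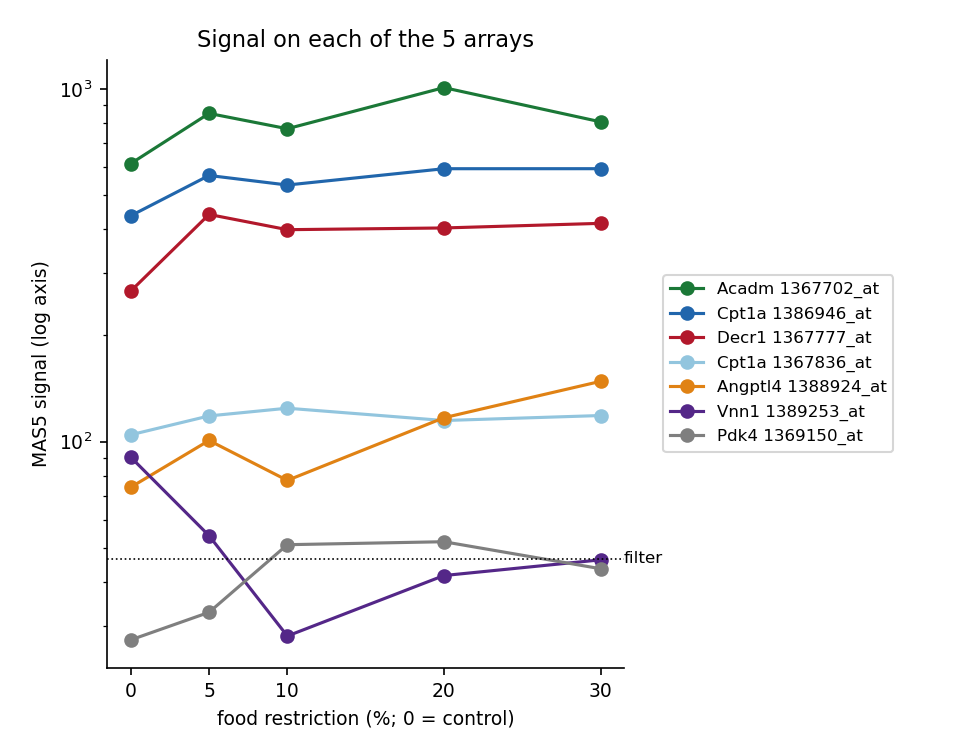
MAS5 signal on a log axis (y axis) against food restriction in percent (x axis, 0 is the control array) for the 5 member genes with the lowest unadjusted p and for *Pdk4*, 1 point per array, with the filter signal of 46.5 dotted. *Decr1* lies at 267.0 on the control array and between 398.6 and 440.3 on the CR arrays, *Angptl4* is highest at 148.1 on the 30% CR array, and *Vnn1* lies under the filter on the 3 arrays from 10% CR on.

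Of the peroxisomal members, 3 had a kept probe set of their own, and only *Ehhadh* and *Hsd17b4* of these encode oxidation enzymes. *Ehhadh*, the bifunctional enzyme for straight chains, gave 126.0 on the control array and 115.8, 126.7, 187.8 and 124.4 on the CR arrays, so that a single array, at 20% CR, stood out with a log2 ratio of 0.58. *Hsd17b4*, the bifunctional enzyme for branched chains, gave 505.4, 514.9, 575.5, 530.5 and 540.7, with the control lowest (mean ratio 0.10, standard error 0.14). *Pex11a*, which takes part in peroxisome division, gave 51.5, 46.6, 42.6, 61.6 and 59.8. Its second probe set, at 21.1 on the control array and 6.4 to 18.0 on the others, was below the filter. The peroxisomal thiolase was seen only through the probe set that names *Acaa1a* and *Acaa1b*, whose signal cannot be divided between the pair (171.4, 194.0, 182.4, 156.9 and 205.8).

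Mitochondrial and peroxisomal steps were then set side by side. For the 14 mitochondrial genes the log2 ratios had medians of 0.07, 0.07, 0.23 and 0.04 from 5 to 30% CR (mean of the 4 medians 0.10, SD between levels 0.09), and the mean ratio was above 0 for 11 and below 0 for 3. For the 3 peroxisomal genes the medians were −0.12, 0.0080, 0.26 and 0.10 (mean 0.06, SD 0.16), and all 3 had a mean ratio above 0. With 3 genes each median is the ratio of 1 gene. At 20% CR that gene was *Pex11a*, a factor of peroxisome division and not an oxidation step, with signals near the filter (42.6 to 61.6 over the arrays). The peroxisomal median minus the mitochondrial one was −0.19, −0.06, 0.03 and 0.06, with a mean of −0.04 and an SD between levels of 0.11. The difference was thus smaller than its spread over the levels. Its sign was not stable, at 0.0077 without the 5% CR pool, and at 0.02 where the ratios were first averaged over the levels for each gene and the median over genes was then taken (0.07 for the mitochondrial and 0.10 for the peroxisomal genes). Without the 20% CR pool the mean peroxisomal median was −0.0055. With the shared *Acaa1a* and *Acaa1b* probe set counted in, the difference was −0.02.

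**Figure D4:**
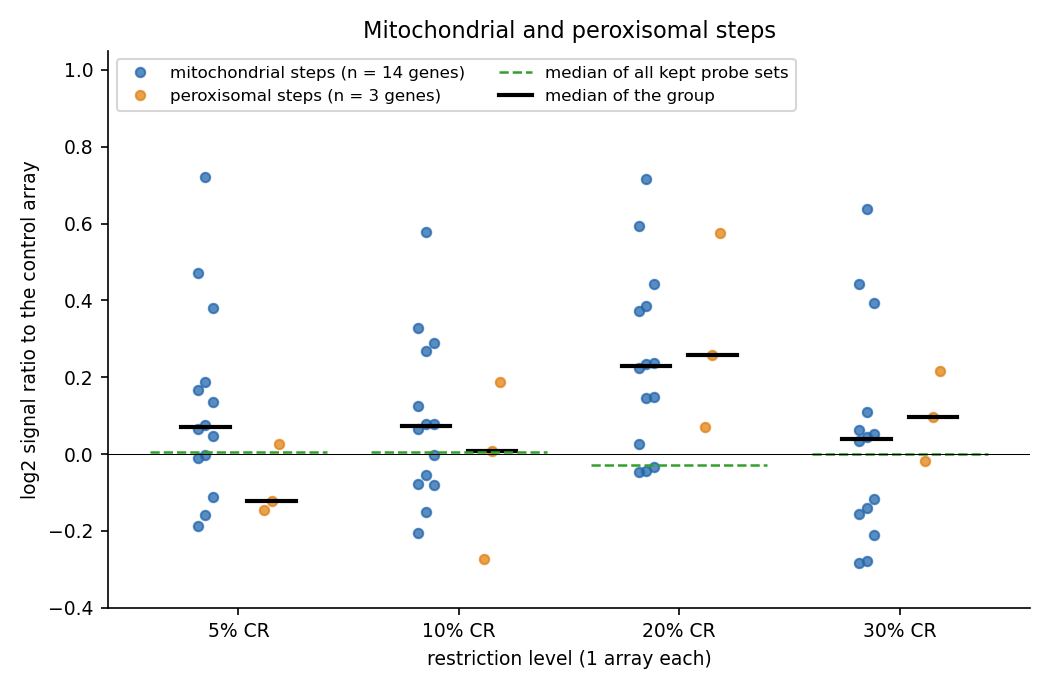
Log2 ratio of each signal to the control signal (y axis) at each CR level (x axis, 1 array each) for 14 mitochondrial and 3 peroxisomal genes, 1 point per gene, with black bars for the medians of the groups and dashed green lines for the median of all kept probe sets. The medians of both groups are highest at 20% CR (0.23 and 0.26, the latter being the ratio of *Pex11a*), and the points of the groups overlap at every level.

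*Ech1* and *Eci2* encode enzymes for unsaturated chains with forms in both organelles and were left out of that comparison. *Ech1*, a dienoyl-CoA isomerase, gave 651.4 on the control array and 680.0, 724.2, 846.9 and 711.0 on the CR arrays (mean ratio 0.18, standard error 0.15). *Eci2*, an enoyl-CoA isomerase, gave 465.1, 531.0, 468.7, 523.4 and 542.2 (mean 0.15, standard error 0.14). For both genes the control was the lowest of the 5 arrays, by less than 2 standard errors in the mean. The probe set naming *Eci3* as well as *Eci2* gave 252.3, 287.6, 214.5, 362.3 and 307.1, with the 10% CR array below the control.

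Ketone body exchange was covered by 1 member, *Bdh1*, the mitochondrial dehydrogenase that interconverts acetoacetate and β-hydroxybutyrate. Its probe sets did not run alike. The signals were 138.0, 136.0, 161.0, 137.7 and 114.0 at the brighter (mean ratio −0.02, standard error 0.21) and 64.9, 82.9, 76.8, 69.7 and 80.6 at the dimmer (mean 0.25, standard error 0.22).

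Among the targets of PPARα and of fasting, *Angptl4* and *Vnn1* lay farthest from the control of the 4 genes with a kept probe set, on opposite sides. *Angptl4*, a secreted inhibitor of lipoprotein lipase, gave 74.2 on the control array and 100.7, 77.6, 116.8 and 148.1 on the CR arrays. All CR arrays were above the control, the 10% CR array only slightly, and the 30% CR array was highest at a log2 ratio of 1.00. The slope was 0.31 per 10% of restriction (standard error 0.09, unadjusted p = 0.0057, adjusted p = 0.998 in limma), and the mean ratio was 0.54 (standard error 0.31), or 0.39 without the 30% CR pool. *Vnn1*, a pantetheinase of the brush border, gave 90.3 on the control array and 54.1, 28.1, 41.7 and 46.2 on the CR arrays. Every CR array was below the control, by log2 ratios of −0.74, −1.68, −1.11 and −0.97 (mean −1.13, standard error 0.35, unadjusted p = 0.0088, adjusted p = 0.955 in limma). The signals from 10% CR on were under the filter signal. *Vnn1* passed the filter only through its control and 5% CR signals, so nothing is read from its mean ratio or its p.

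The other genes of this group gave no common order. *Pdk4*, the kinase that shuts off pyruvate dehydrogenase in fasting, gave 27.4 on the control array and 32.8, 51.0, 52.0 and 43.6 on the CR arrays, with log2 ratios of 0.26, 0.90, 0.92 and 0.67. The control was lowest, but the mean signal lay below the filter and the gene was not tested. *Plin2*, the coat protein of lipid droplets, was highest on the control array at its bright probe set (910.3, 823.4, 696.3, 859.8 and 763.6, mean ratio −0.22, standard error 0.15). At its dim probe set it lay on both sides of the control (73.0, 64.5, 83.5, 82.4 and 90.2, mean 0.12). *Ucp2*, an uncoupling protein homologue of the inner mitochondrial membrane, gave 701.2, 740.2, 800.2, 666.8 and 827.5. *Ppara* itself was dim on every array (1.8 to 8.4), far below the filter, and was not tested.

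Like 7 of the 8 pancreas markers, *Vnn1* was highest on the control array, where *Decr1*, *Acadm* and *Cpt1a* were lowest. With 1 control pool, the makeup of that pool and the diet cannot be told apart. The adipocyte markers, of which 5 of 8 were measured, summed to 263.8 on the control array and 290.4, 335.8, 237.4 and 284 on the CR arrays. The 2 that passed the filter were *Fabp4* (121.0, 136.9, 156.7, 99.9 and 119.2) and *Cfd* (82.5, 105.9, 140.3, 117.5 and 114.2). *Lpl* (47.7, 37.9, 31.2, 16.3 and 39.6) and *Plin1* (11.3, 8.3, 5.2, 1.8 and 10.0) did not pass it and were highest on the control array. *Lep* lay at 1.0 to 2.4. For smooth muscle (8 of 8) the sums were 11684.1, 9427.6, 12809.2, 11046.3 and 9563.3, and for lymphocytes (6 of 8) 5384.6, 4978.6, 6161.7, 6103.6 and 5086.3. *Cd74* carried most of each lymphocyte sum (4205.2, 3625.6, 4815.4, 4684.1 and 3762.3). All 6 hepatocyte markers were measured, with sums of 1836.5, 2034.7, 1842.8, 2221.1 and 2454.6. Most of each sum came from *Cps1* (1752.4, 1960.8, 1754.3, 2088.2 and 2376.9 at its brighter probe set). *Alb*, which defines that cell, stayed between 5.2 and 26.0 over its probe sets. The part of these cell types in the member signals was not tested.

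Other genes of the same pathways gave the members' values a frame, and none of them passed limma in either direction. Of 19 other genes of mitochondrial oxidation 12 were kept, and the mean ratio was above 0 for 7 and below 0 for 5 (median 0.03). *Acad9*, a dehydrogenase that also helps to assemble respiratory complex I, was highest on the control array (308.7, 260.8, 266.2, 232.4 and 229.3, mean ratio −0.32, standard error 0.16). *Mcee* and *Pcca*, of propionyl-CoA breakdown, had mean ratios of 0.21 and 0.13 (standard errors 0.20 and 0.21).

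Of 38 other peroxisomal genes 18 were kept, 8 above and 10 below 0 in the mean ratio (median −0.02). *Amacr*, the racemase that lets branched chains enter oxidation, had a step much like that of *Decr1*, with 237.0 on the control array and 395.0, 324.3, 373.3 and 376.5 on the CR arrays (mean ratio 0.63, standard error 0.16, limma unadjusted p = 0.00272, adjusted p = 0.675). *Pex3*, a factor for building the peroxisomal membrane, had 37.2, 39.2, 56.6, 51.6 and 56.3 (mean 0.44, standard error 0.29). Its control signal and the signal listed next were under the filter signal. The gene passed the filter only through its later signals, so nothing is read from its mean ratio. *Abcd3*, a peroxisomal fatty acid transporter, was highest on the control array (222.9, 173.6, 186.8, 161.0 and 213.0, mean −0.29, standard error 0.19). No common direction was thus seen among these genes.

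Among the other ketone body genes, 3 of 8 were kept and all 3 had a mean ratio below 0 (median −0.24). *Aacs*, which feeds acetoacetate into lipid synthesis, gave 132.2 on the control array and 86.1, 74.5, 103.1 and 106.2 on the CR arrays (mean −0.53, standard error 0.24, limma adjusted p = 0.988). *Oxct1*, which activates acetoacetate for use as fuel, gave 556.0, 460.3, 431.8, 522.2 and 473.6 (mean −0.24, standard error 0.15). For both enzymes every CR array lay below the control. *Slc16a1*, a monocarboxylate carrier that moves ketone bodies and lactate, gave 418.1, 448.7, 325.9, 276.0 and 396.0, with 1 CR array above the control.

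For activation and binding of fatty acids, 12 of 17 other genes were kept, 8 above and 4 below 0 in the mean (median 0.09). *Fabp2*, the intestinal fatty acid-binding protein and also one of the enterocyte markers, gave 983.8 on the control array and 1918.3, 1805.8, 2382.9 and 1969.2 on the CR arrays (mean 1.03, standard error 0.16, limma adjusted p = 0.183). *Fabp1*, the liver form that enterocytes also make, gave 4064.7, 5205.2, 5369.0, 6468.2 and 5401.3 (mean 0.46, standard error 0.15). Both had every CR array above the control and the 20% CR array highest. *Slc27a1*, a fatty acid transport protein, had a mean ratio of −0.34 (standard error 0.22).

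Of 31 other genes of the PPARα network 13 were kept, 6 of them above and 7 below 0 in the mean. *Cyp4b1*, a fatty acid-oxidizing cytochrome P450, gave 42.6 on the control array, under the filter signal, and 101.6, 122.1, 127.2 and 81.9 on the CR arrays (mean 1.32, standard error 0.26, limma adjusted p = 0.313). The gene passed the filter only through its CR signals, so nothing is read from its mean ratio. *Cd36*, a fatty acid translocase, gave 113.4, 194.4, 161.7, 130.3 and 201.0 at its brightest probe set (mean 0.58, standard error 0.24). *Cd36* was lowest on the control array. *Rxrb*, a partner receptor of PPARα, had a mean ratio of −0.43 (standard error 0.27), on the other side.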

How the data were processed

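The deposited values are linear signal intensities, 1 array per pool of 5 rats, that the authors computed with MAS5 (per the submitters' processing notes) and scaled to a common trimmed mean, 2% off each end, which removes any difference in total RNA. MAS5 subtracts mismatch signal, so ratios of dim probe sets vary widely. The authors' detection and change calls were not used here, and 0 value columns were left unused.

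After 57 control probe sets of the array had been set aside, signals under 0.1 were set to 0.1 and log2 was taken. A single gene name is carried by 12783 of the remaining 15866 probe sets, several by 312 and none here by 2771, and 0 member symbols needed updating. Probe sets whose mean log2 signal reached the median (46.5 as a signal) were kept. Both fits, CR against control and slope per 10% of restriction, used limma 3.58.1 in R 4.3.3 with all 5 arrays (lmFit and eBayes, trend = TRUE, two-sided tests, Benjamini-Hochberg adjustment across the 7933 kept probe sets, threshold 0.05), and the lone control pool was taken to vary as the others do. The fits were tested on simulated data. Medians used the brightest probe set of a gene, and counts by size had no test.

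All members with a probe set of their own were named, with up to 3 kept genes of each other list by size of the mean ratio and up to 2 bright markers of a cell type. *Lep*, *Lpl*, *Plin1* and *Alb* were chosen after their values were seen. Members and lists were chosen with earlier results of these data known. Alternatives covered the normalization (quantile, median), an added constant of 13, the filter (none, or the quantile 0.75), sizes of 0.3 and 1, leaving out pools, the variance prior, ranked levels and averaged probe sets. Centring on the enterocyte markers, the 5% CR pool as reference, the shared *Acaa1a* probe set, the median of the genes' mean ratios and the count of probe sets highest at 20% CR were chosen after seeing the data. Python 3.11.15, pandas 2.3.3 and matplotlib 3.10.9 made tables and figures.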

Additional observations from a re-analysis of the deposited data

How the results depend on the processing

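Each level is 1 pool, so rat-to-rat spread is unknown, and dim probe sets limit what can be read. No paired analysis was possible because each rat and pool had 1 diet only. The count of all probe sets at least 0.5 from the control in 1 direction at all 4 levels, 88 (61 higher, 27 lower), was 57 with an added constant, 1136 without the filter, 22 with the stricter filter, 344 at a size of 0.3, 11 at a size of 1, and 22 with the 5% CR pool as the reference, which uses 3 levels. With 1 CR pool left out it was 108 to 164, highest without the 10% CR pool (162 without the 20% CR pool), since fewer arrays must then pass. The members' count, 2, was 4 without the filter (with *Acot1* and the dim *Eci1* probe set), 1 with the stricter filter (*Decr1*), 0 at a size of 1, 0 with the 5% CR pool as the reference and 1 (*Vnn1*) centred on the enterocyte markers. It was 2 whichever CR pool was left out, with the same genes. Those 2 could not be lost that way, since fewer arrays must then pass, and no other member was added. The count of all probe sets called by limma against the control was 0 under every alternative run except without the 30% CR pool, where it was 3, none of them members (range 0 to 3), and the cause was not tested. The trend called 0 throughout. All medians moved by less than their SD over the levels. Of 240 recomputed mean ratios of the 30 member probe sets, 238 moved by less than that spread and 15 changed sign, none of them called. Leaving out 1 of 4 levels cannot move a mean over the levels by as much as the SD over them. For the settings without a CR pool, staying within the spread was thus fixed in advance, for the medians too.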
